A study of Rattus norvegicus with 6 samples.

Results

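The genes of glutathione and antioxidant defense were examined in mammary tumors of F344 rats, an inbred strain, by bulk RNA-seq. They were taken from the table of read counts by symbol: the glutathione S-transferases and their microsomal relatives, the glutathione peroxidases, the peroxiredoxins, and 13 further genes of glutathione synthesis, thioredoxin and heme metabolism, superoxide and peroxide removal, and their control (Gclc, Gclm, Gss, Gsr, Txnrd1, Hmox1, Srxn1, Sod1, Sod2, Sod3, Cat, Nfe2l2 and Keap1). The rule selected 53 of the 30562 rows of the table. Of these, 45 had enough counts to be tested, among 13139 genes tested in all. Gpx5, Gsta2 and Gstt4 had 0 counts in every tumor, and Gpx6 (4 counts over the 6 tumors), Gsta3 (15), Gsta5 (1), Gstm3 (8) and Gstp3 (22) were too low to test.

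Tumors 102, 107 and 116 came from older rats, which were obtained at 19 to 21 months of age and were 21 to 23 months old when they received the carcinogen. Tumors 157, 158 and 167 came from younger rats, which were obtained at 6 to 8 weeks and received it at 4 months. Every rat carried a subcutaneous pellet of 50 mg MPA, a progestin released over 90 days, and received 65 mg/kg of DMBA, a carcinogen, in a single oral gavage 1 week later, so there is no untreated group. The younger group holds every tumor that formed in the younger rats, and the older group holds 3 tumors with enough tissue. Each tumor is a single library, and p-values therefore measure the spread between tumors.

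Totals ran from 3508571 counts (tumor 102) to 6525830 (tumor 158), of which rows without a gene name took 2.17% to 3.64% and were left out. Levels are given as CPM, read counts scaled to a common library size with edgeR's TMM factors. They are not corrected for transcript length, so a level is compared between tumors and not between genes. A count of 3, taken as the floor, corresponded to between 0.528 and 1.03 CPM, which covers counting error only. Tumor 102 stood apart in its summed proliferation markers (169 CPM, against 784 to 1294 CPM in the other tumors), and several fold changes below are also given without it. In bulk tissue, fewer cells of a type and less RNA per cell cannot be told apart.

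Glutathione is a small thiol that serves as the main soluble reductant of the cell. It is built by glutamate-cysteine ligase (Gclc and Gclm) and glutathione synthetase (Gss), used by transferases to tag electrophiles and by peroxidases to reduce peroxides, and returned to its reduced form by glutathione reductase (Gsr). Peroxiredoxins remove peroxides with electrons from thioredoxin, and superoxide dismutases and catalase act on superoxide and hydrogen peroxide. Many of these genes are targets of the transcription factor NRF2 (encoded by Nfe2l2), which KEAP1 holds in check and which binds the antioxidant response element. In the mammary gland and liver, conjugation with glutathione also clears reactive products of polycyclic hydrocarbons such as DMBA.

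The core of that element, written here as TGACNNNGC, was searched on both strands in the promoter windows of RefSeq (assembly GRCr8, 250 bases before to 50 bases after each annotated start). Windows were matched for 45 of the 53 genes by symbol; Gpx8, Gsr, Gstt1, Gstt2, Hmox1, Mgst2, Prdx6 and Sod3 were not matched. The motif was in a window of 15 of the 45 (33.3%), in 10 of them ahead of the start, and in a window of 3602 of all 27457 genes with a window (13.1%). It shares letters with the AP-1 motif TGANTCA, and in Gstp1 and Prdx1 the match holds both. A match of letters is a description of the window. Stretches of 60 bases are shown for 5 genes with the motif whose levels are described below, on the gene's strand and 5′ to 3′, with the motif or its reverse complement in capitals.
Gstp1: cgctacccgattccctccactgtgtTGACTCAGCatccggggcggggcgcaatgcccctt
Prdx1: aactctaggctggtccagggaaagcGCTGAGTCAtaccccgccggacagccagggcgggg
Gclm: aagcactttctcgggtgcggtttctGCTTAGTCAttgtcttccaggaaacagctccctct
Txnrd1: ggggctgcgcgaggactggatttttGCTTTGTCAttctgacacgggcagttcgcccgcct
Gpx2: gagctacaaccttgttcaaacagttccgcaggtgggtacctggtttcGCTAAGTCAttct

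In GRCr8 the Gstp1 stretch lies at chr1:210769732-210769791 (minus strand), with its motif beginning 61 bases before the start. The Prdx1 stretch lies at chr5:135383746-135383805 (plus strand, 135 bases before the start) and the Gclm stretch at chr2:213031938-213031997 (plus strand, 172 bases). The Txnrd1 stretch lies at chr7:22755948-22756007 (minus strand, 78 bases), at the only annotated start of that gene whose window held the motif. The Gpx2 stretch lies at chr6:101230034-101230093 (minus strand, 13 bases). The reads themselves were aligned to another build, mRatBN7.2. Of the 13 tested genes with the motif in a window, 7 had a log2 fold change below 0 (older minus younger), with a median of -0.08 and an unadjusted p under 0.05 in 0. Of the 25 tested genes with a window that lacked the motif, 19 were below 0. Their median was -0.33, with an unadjusted p under 0.05 in 2 (Mgst3 and Prdx3). Txnrd1 has windows of both kinds and is counted in both groups. The genes without a matched window are in neither group. All of these were tested and lay below 0, from -2.39 (Hmox1) to -0.42 (Mgst2). Hmox1 and Sod3 among them had an unadjusted p under 0.05 (edgeR). The difference between the genes with and without the motif was not tested.

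The question of the age comparison is whether tumors that arose in an aged host differ in these defenses from tumors of younger hosts. By the sign of the fitted difference alone, 33 of the 45 tested genes (73.3%) lay lower in tumors from older rats and 12 lay higher, where 50.4% of all genes tested were below 0. Their median log2 fold change was -0.38, within a range from -2.39 (Hmox1) to 1.31 (Gsta6), against -0.0038 over all genes tested. No gene of the 45 passed an adjusted p of 0.05 in edgeR's quasi-likelihood test (0, against 0% of all genes tested), and the smallest adjusted p over all genes was 0.176. DESeq2 called 0 of them too, where it called 0.817% of all genes lower and 1.67% higher, and limma-voom called 0.

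At an unadjusted p under 0.05 (edgeR), 4 of the 45 genes lay lower in older tumors (8.89%, against 3.29% of all genes tested) and 0 lay higher (against 5.3%). These were Prdx3, Mgst3, Sod3 and Hmox1. Counted in either direction, these 4 genes are 8.89% of the 45, near the 8.59% of all genes tested. The 3 older tumors all lay below the 3 younger ones for 5 genes (11.1%, against 5.58% of all genes tested), namely Gsr, Gstt2, Mgst3, Prdx3 and Prdx6. The older tumors all lay above the younger ones for 0 genes, against 6.51% of all genes. In both directions together the 5 genes are 11.1% of the 45, near the 12.1% of all genes tested. Without tumor 107 the median log2 fold change was -0.21, the value nearest to 0 among the 6 fits that left out a tumor, and without tumor 102 it was -0.25, with 30 of the 45 genes below 0. Gene by gene, 24 of the 45 kept the sign of their log2 fold change in all 6 of these fits and 21 turned in at least 1 of them.

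**Figure D1:**
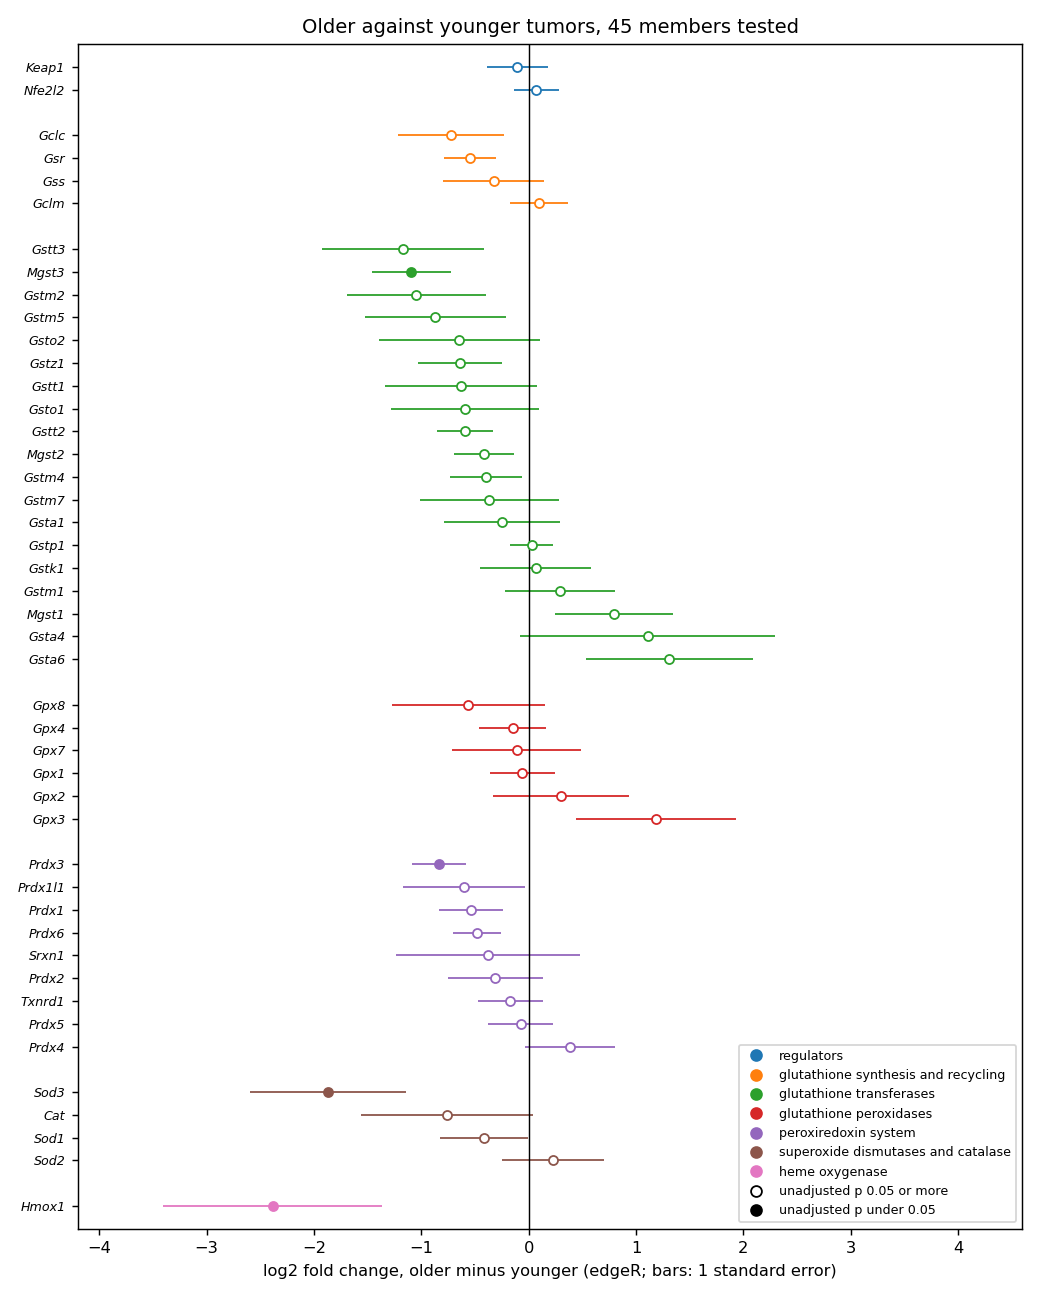
Log2 fold changes (older minus younger tumors, x axis) of the 45 genes tested, ordered by family (y axis), with bars of 1 standard error from edgeR; filled points mark an unadjusted p under 0.05. The filled points are Prdx3, Mgst3, Sod3 and Hmox1, all left of 0, and 33 of the 45 points lie left of 0.

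Transcripts of the regulators NRF2 and KEAP1 overlapped between the groups. Nfe2l2, which encodes NRF2, was at 122, 149 and 125 CPM in older tumors 102, 107 and 116 and at 128, 118 and 132 CPM in younger tumors 157, 158 and 167. Its groups overlapped, with means of 132 ± 14.8 CPM (SD, n = 3) and 126 ± 7.38 CPM (SD, n = 3), and the highest tumor was only 1.27 times the lowest. The log2 fold change of Nfe2l2 was 0.07 (standard error 0.21, adjusted p = 0.97, edgeR), and it became -0.01 with library totals in place of TMM. Keap1, whose product marks NRF2 for degradation, was at 21.3, 25.6 and 36.1 CPM in older tumors and 31.3, 27.4 and 30.7 CPM in younger ones. These values overlapped as well (log2 fold change -0.11, standard error 0.28, adjusted p = 0.965). NRF2 is controlled mainly at the level of the protein, which RNA counts do not measure.

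The enzymes that make and recycle glutathione were lower in sum in every older tumor, at 184 to 228 CPM over Gclc, Gclm, Gss and Gsr, against 253 to 317 CPM in younger tumors. Glutathione reductase, Gsr, had the most counts of the group and was at 94.3, 92.6 and 130 CPM in older tumors and 136, 147 and 181 CPM in younger ones. The groups of Gsr did not overlap, yet the difference did not pass the test (106 ± 21.3 against 154 ± 23.5 CPM, SD, n = 3 each; log2 fold change -0.55, standard error 0.25, unadjusted p = 0.0584, adjusted p = 0.608). Gclc encodes the catalytic subunit of the rate-limiting ligase. It was at 59.3, 38.5 and 31.5 CPM in older tumors and 61.1, 121 and 31.0 CPM in younger ones, so that younger tumors 158 and 167 were its highest and its lowest. Its log2 fold change of -0.73 (adjusted p = 0.802, standard error 0.50) was -0.10 without tumor 158. Gclm, the modifier subunit of the same ligase, was at 28.8, 22.4 and 31.3 CPM against 21.7, 26.5 and 29.2 CPM. The 6 values of Gclm lay within 1.45-fold of each other, and its log2 fold change of 0.09 (adjusted p = 0.968, standard error 0.27) was -0.02 without tumor 116 and -0.03 without tumor 157. Gss, the synthetase of the final step, was at 9.94, 30.8 and 35.5 CPM against 34.3, 22.9 and 39.1 CPM, lowest in tumor 102 and with overlapping groups. Its log2 fold change of -0.33 (adjusted p = 0.925, standard error 0.47) was 0.05 without tumor 102 and -0.65 without tumor 116.

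The peroxiredoxin system was the other family whose sum separated the groups, though narrowly, at 582 to 825 CPM in older tumors and 826 to 942 CPM in younger ones over 9 genes. By sign, 8 of the 9 lay lower and 1 (Prdx4) higher, with a median log2 fold change of -0.38. Prdx3, the peroxiredoxin of the mitochondrial matrix, was at 38.7, 51.4 and 61.6 CPM in older tumors and 86.3, 102 and 83.8 CPM in younger ones. Its highest older tumor (116) remained below its lowest younger tumor (167). The means of Prdx3 were 50.6 ± 11.5 and 90.5 ± 9.64 CPM (SD, n = 3 each), a log2 fold change of -0.84 (standard error 0.25, unadjusted p = 0.0108, adjusted p = 0.368, edgeR). Leaving out each tumor gave between -1.01 and -0.69, with an unadjusted p under 0.05 each time, while the adjusted p stayed above the threshold.

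Prdx1, a cytosolic peroxiredoxin with the most counts of the set, was at 237, 170 and 303 CPM in older tumors and 270, 368 and 392 CPM in younger ones. Older tumor 116 lay above younger tumor 157, so the groups overlapped (236 ± 66.5 against 344 ± 64.9 CPM, SD, n = 3 each; log2 fold change -0.54, standard error 0.30, adjusted p = 0.731). Without tumor 107 it was -0.35. Prdx6, which also reduces phospholipid peroxides, was at 99.1, 71.1 and 94.9 CPM against 117, 123 and 129 CPM. The groups of Prdx6 did not overlap, and its log2 fold change was -0.48 (standard error 0.22, unadjusted p = 0.0644, adjusted p = 0.625). Prdx2, another cytosolic peroxiredoxin and a major protein of red blood cells, was at 55.5, 187 and 192 CPM against 175, 173 and 191 CPM. Only tumor 102 departed from the others for Prdx2, and the log2 fold change of -0.31 (adjusted p = 0.924, standard error 0.44) became 0.07 without that tumor. Prdx4, the peroxiredoxin of the endoplasmic reticulum, was at 40.8, 112 and 73.6 CPM against 40.8, 81.2 and 51.9 CPM, with overlapping groups and a log2 fold change of 0.38 that was -0.02 without tumor 107 and 0.66 without tumor 102. Thioredoxin reductase Txnrd1 was at 74.0, 48.7 and 67.4 CPM against 98.6, 60.3 and 54.8 CPM, with a log2 fold change of -0.17 that was 0.13 without tumor 157 and -0.30 without tumor 102. The log2 fold changes of Prdx5, of the sulfiredoxin gene Srxn1 and of Prdx1l1 were -0.08, -0.38 and -0.60. Prdx1l1 is a copy of Prdx1, and how reads were split between them is uncertain.

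**Figure D2:**
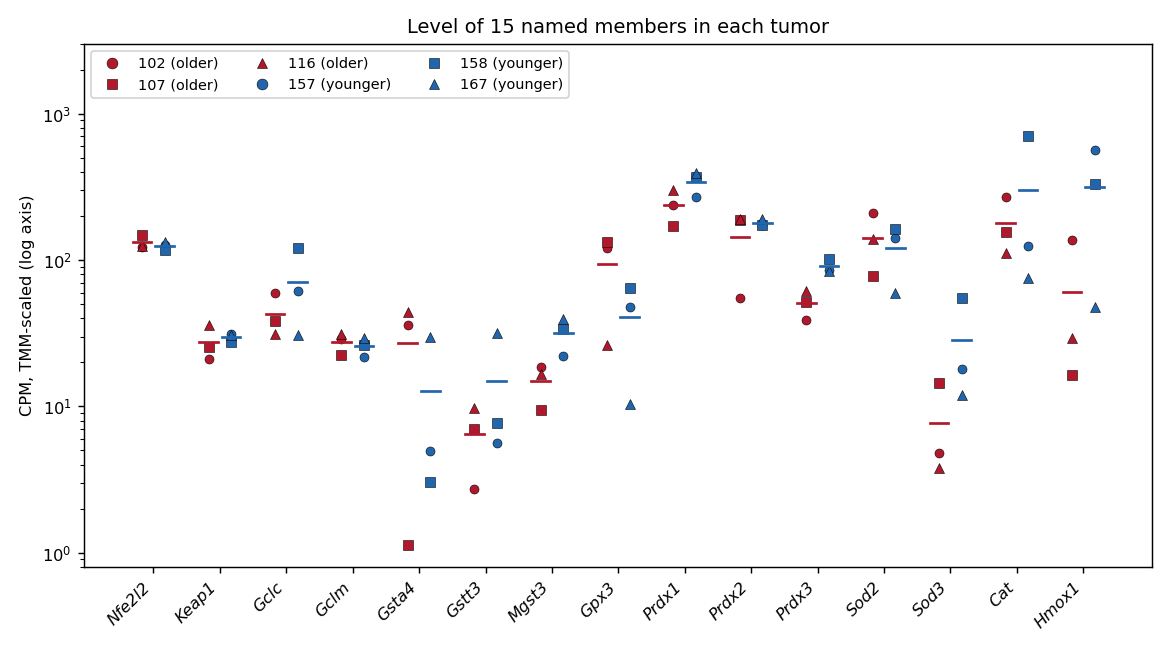
Level in CPM (y axis, log scale) of 15 named genes (x axis) in each of the 6 tumors, with colors for the age group and a marker shape for each tumor. Prdx3 and Mgst3 are the genes whose 3 older points all lie below the 3 younger ones, and Hmox1 and Gsta4 spread the widest.

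The glutathione transferases, which conjugate glutathione to electrophiles, overlapped as a family: the 25 genes summed to 374 to 662 CPM in older tumors and 491 to 587 CPM in younger ones. Of the 19 tested, 13 lay lower and 6 higher by sign, with a median log2 fold change of -0.42. Mgst3, a membrane-bound member that reduces lipid peroxides, was at 18.5, 9.50 and 16.7 CPM in older tumors and 22.0, 34.0 and 39.3 CPM in younger ones. No older tumor reached the lowest younger tumor (14.9 ± 4.77 against 31.8 ± 8.88 CPM, SD, n = 3 each). The log2 fold change of Mgst3 was -1.09 (standard error 0.37, unadjusted p = 0.0186, adjusted p = 0.432, edgeR), and its unadjusted p was 0.0571 without tumor 107 and 0.0627 without tumor 167. Gstt2, a theta-class transferase, was at 21.9, 19.7 and 18.5 CPM against 26.1, 28.8 and 35.9 CPM. The 3 older values lay close together and below the younger ones, with a log2 fold change of -0.59 (standard error 0.26, unadjusted p = 0.0536, adjusted p = 0.59).

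Gstp1, the pi-class transferase widely expressed in epithelia, was the steadiest gene of the set, at 127, 124 and 145 CPM in older tumors and 130, 128 and 130 CPM in younger ones. Its highest and lowest tumors differed 1.17-fold, and its log2 fold change was 0.03 (standard error 0.20, adjusted p = 0.987). Other transferases varied widely within a group. Gsta4, which conjugates the lipid peroxidation product hydroxynonenal, was at 36.0, 1.13 and 43.9 CPM in older tumors and 4.93, 3.06 and 30.0 CPM in younger ones. Tumor 107 and tumor 158 were the lowest of their groups and the 6 tumors spanned 38.8-fold, so the log2 fold change of 1.11 came with a standard error of 1.19 (adjusted p = 0.897). It ran from 0.54 without tumor 116 to 2.74 without tumor 167. Gstt3 was at 2.74, 7.02 and 9.77 CPM against 5.63, 7.75 and 31.7 CPM. Its difference rested on tumor 167, since the log2 fold change of -1.17 (adjusted p = 0.781, standard error 0.75) was -0.03 without it. Mgst1, a microsomal transferase of the endoplasmic reticulum and outer mitochondrial membrane, was at 247, 53.9 and 89.5 CPM against 57.6, 103 and 64.1 CPM, with tumor 102 far above the rest. Its log2 fold change of 0.79 (adjusted p = 0.807, standard error 0.55) was -0.07 without that tumor. Gsta6, an alpha-class transferase, was at 48.0, 5.88 and 19.1 CPM against 7.22, 17.1 and 4.67 CPM, again highest in tumor 102. Its log2 fold change of 1.31 (adjusted p = 0.754, standard error 0.77) was 0.35 without tumor 102 and 2.01 without tumor 158. Gsta, Gstm and Gstt genes, and Gstp1 and Gstp3, have close copies, so their counts may be divided between copies in a way that these data do not show.

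Glutathione peroxidases overlapped between the groups in sum (202 to 267 CPM in older tumors, 174 to 241 CPM in younger ones), and 4 of the 6 tested lay lower by sign. Gpx3, the secreted form, was at 121, 133 and 26.3 CPM in older tumors and 47.5, 64.8 and 10.3 CPM in younger ones. Tumors 116 and 167 were the lowest of their groups, and older tumor 116 lay below younger tumors 157 and 158. The log2 fold change of Gpx3 was 1.19 (standard error 0.75, adjusted p = 0.777), and it was 0.73 without tumor 167. Gpx1, the cytosolic form, was at 63.1, 81.9 and 67.0 CPM against 47.2, 79.4 and 94.6 CPM, with a log2 fold change of -0.06 that was 0.01 without tumor 102 and 0.15 without tumor 167. Gpx4, which reduces lipid peroxides in membranes and protects against ferroptosis, was at 56.2, 41.9 and 80.0 CPM against 56.9, 83.9 and 56.5 CPM, with a log2 fold change of -0.15 that was -0.43 without tumor 116 and 0.07 without tumor 158. Neither gene separated the groups. Gpx2, a peroxidase known from the gut epithelium, was at 4.46, 5.43 and 13.0 CPM against 10.6, 2.70 and 5.41 CPM, with overlapping groups. Its log2 fold change of 0.30 (adjusted p = 0.95, standard error 0.63) was -0.33 without tumor 116 and 0.92 without tumor 157. Gpx7 and Gpx8 had log2 fold changes of -0.11 and -0.56.

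Of the enzymes that act on superoxide and hydrogen peroxide, Sod3 had the fold change farthest from 0 and Cat the widest spread among younger tumors. Sod3, the secreted superoxide dismutase of the extracellular matrix, was at 4.80, 14.5 and 3.79 CPM in older tumors and 18.1, 54.8 and 12 CPM in younger ones. Older tumor 107 lay above younger tumor 167, and tumor 158 was the highest. The means of Sod3 were 7.69 ± 5.90 and 28.3 ± 23.1 CPM (SD, n = 3 each), a log2 fold change of -1.87 (standard error 0.72, unadjusted p = 0.0339, adjusted p = 0.522, edgeR). Without tumor 158 it was -0.96 with an unadjusted p of 0.18, and the unadjusted p also missed 0.05 without tumor 102 or tumor 116. Cat, catalase, was at 269, 156 and 112 CPM against 124, 709 and 75.9 CPM. Its sign turned on tumor 158: the log2 fold change was -0.76 (standard error 0.80, adjusted p = 0.895) with all tumors and 0.84 without that tumor. Sod2, the mitochondrial dismutase, was at 211, 77.8 and 139 CPM against 141, 164 and 59.5 CPM, with overlapping groups and a log2 fold change of 0.23 (adjusted p = 0.95, standard error 0.47) that was -0.18 without tumor 102 and -0.11 without tumor 167. Sod1, the cytosolic dismutase, was at 37.4, 55.9 and 92.3 CPM against 68.5, 120 and 59.7 CPM, also overlapping. Its log2 fold change of -0.42 (adjusted p = 0.879, standard error 0.41) was -0.17 without tumor 102, -0.04 without tumor 158 and -0.83 without tumor 116.

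Hmox1, heme oxygenase, which breaks heme down and is a strongly inducible target of NRF2, had the fold change farthest from 0 in the set. It was at 137, 16.3 and 29.3 CPM in older tumors (399, 72 and 147 counts) and at 568, 332 and 47.7 CPM in younger ones (3228, 1841 and 194 counts). Younger tumors 157 and 158 were high and tumor 167 lay below older tumor 102, so the groups overlapped, and the 6 tumors spanned 34.9-fold. The means of Hmox1 were 60.8 ± 66.1 and 316 ± 261 CPM (SD, n = 3 each), a log2 fold change of -2.39 (standard error 1.02, unadjusted p = 0.0492, adjusted p = 0.578, edgeR). It was -3.79 without tumor 102 and -1.66 without tumor 157, and the unadjusted p was above 0.05 when tumor 107, 116, 157 or 158 was left out. Summed erythroid markers were also higher in younger tumors on average, at 96.7, 192 and 110 CPM in older tumors 102, 107 and 116 and 341, 273 and 185 CPM in younger tumors 157, 158 and 167. Their part in the Hmox1 values was not tested.

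The genes differed in which tumor was highest or lowest. Over the 45 tested, the highest tumor was tumor 167 for 15 genes (33.3%, against 18.7% of all genes tested). The lowest was tumor 102 for 15 (33.3%, against 27.3%) and tumor 107 for 14 (31.1%, against 13.3%). Many of the genes spanned a wide range: the highest tumor was under 2 times the lowest for 9 of the 45 (20%, against 38% of all genes tested), 2 to 4 times for 16 (35.6%, against 35.8%) and over 4 times for 18 (40%, against 23.1%). In the other 2 genes the lowest tumor was under the floor. The summed level of all 53 genes was 1982 to 2487 CPM in older tumors and 2390 to 3575 CPM in younger ones, which overlapped.

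**Figure D3:**
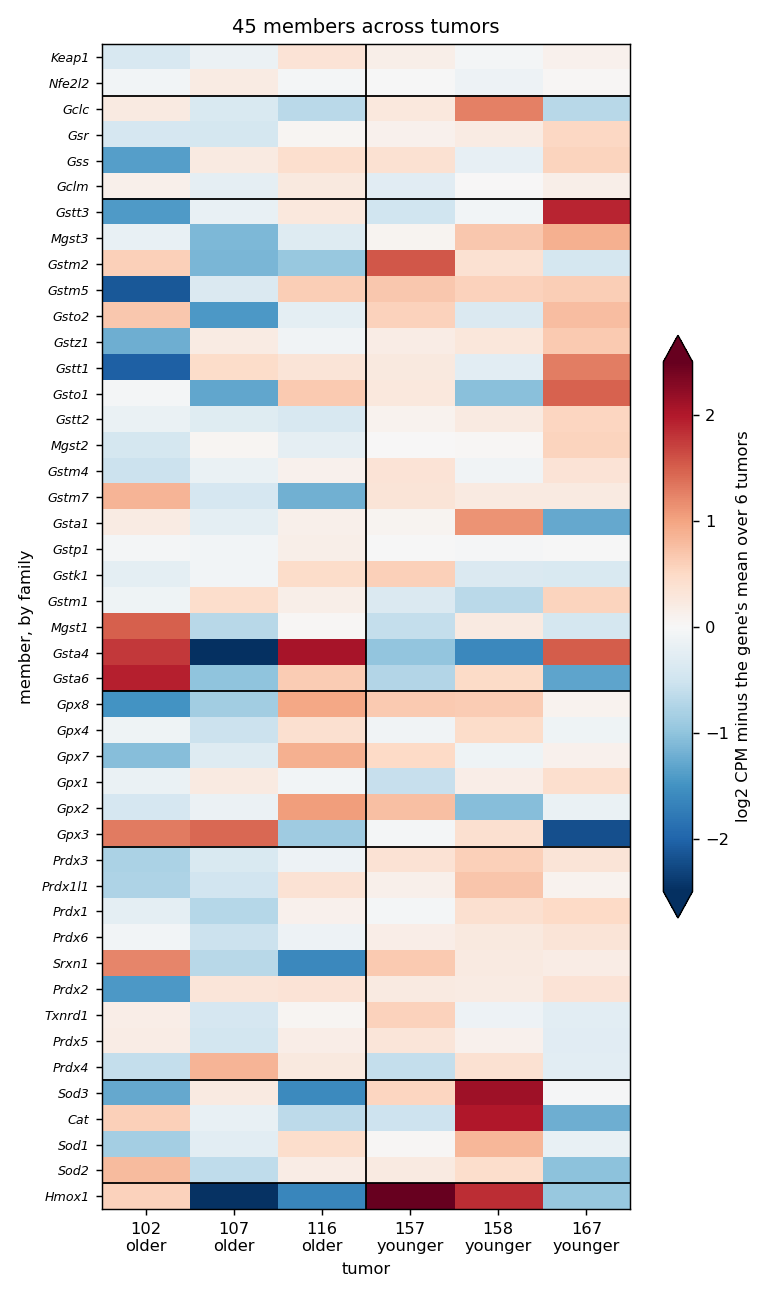
Log2 CPM of the 45 genes tested (rows, by family) in each tumor (columns, older left of the line), shown as the difference from the gene's mean over the 6 tumors. Prdx3 and Mgst3 are lower in the 3 older columns, while Hmox1, Gsta4 and Cat vary within a group.

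Likeness of pattern was described by the Pearson correlation of log2 CPM over the 6 tumors, which share their age groups and libraries. Mgst3 was most like Prdx6 (r = 0.97), Prdx1 (r = 0.94) and Gstt2 (r = 0.89). Hmox1 was most like Gstm2 (r = 0.96), a mu-class transferase at 26.4, 7.69 and 8.77 CPM in older tumors and 51.6, 22.9 and 12.8 CPM in younger ones, then Gclc (r = 0.78) and Prdx5 (r = 0.74). Both Hmox1 and Gstm2 were highest in tumor 157 and lowest in tumor 107. Prdx3 was most like Prdx1l1 (r = 0.87), Gstm5 (r = 0.86) and Gsr (r = 0.84), and Sod3 was most like Prdx3 (r = 0.73), Gclc (r = 0.70) and Gstz1 (r = 0.56).

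Around these enzymes, 5 lists of other pathway genes were examined, with 110 rows tested in all (108 names). Of these, 57 lay below 0, with a median log2 fold change of -0.01, where 50.4% of all genes tested lay below 0. At an unadjusted p under 0.05 (edgeR), 6 of the 110 lay lower and 7 higher, and 0 passed an adjusted p of 0.05. Over all genes tested, 3.29% lay lower and 5.3% higher at that unadjusted threshold. NRF2 targets outside the set (21 tested) had a median of -0.11, with 2 lower and 0 higher at that threshold. Nqo1, the quinone reductase often used as a readout of NRF2, was at 4.80, 6.11 and 4.98 CPM in older tumors and 8.10, 4.14 and 4.91 CPM in younger ones. Nqo1 did not separate the groups (log2 fold change -0.11, standard error 0.43, adjusted p = 0.978). The epoxide hydrolase Ephx1, at 15.4, 5.66 and 7.18 CPM against 25.5, 17.7 and 15.5 CPM, was lower in every older tumor, though narrowly (log2 fold change -1.07, standard error 0.46, unadjusted p = 0.048, adjusted p = 0.577), and the log2 fold change was -1.61 without tumor 102. The regulators of NRF2 (14 rows tested) lay above 0 in 13 rows and below in 1, with a median log2 fold change of 0.29 and an unadjusted p under 0.05 in 0.

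Thioredoxin and glutaredoxin genes held 28 tested rows, among them 2 rows of Selenow, both below 0. Of the 28 rows, 19 lay below 0 (against 50.4% of all genes tested), with a median log2 fold change of -0.26. At an unadjusted p under 0.05 (edgeR), 2 lay lower and 0 higher, against 3.29% and 5.3% of all genes tested. Sesn2, a stress-induced sestrin, was at 20.6, 24.0 and 28.3 CPM in older tumors and 71.5, 64.1 and 37.1 CPM in younger ones. The groups of Sesn2 did not overlap (log2 fold change -1.24, standard error 0.32, unadjusted p = 0.00477, adjusted p = 0.323 with edgeR and 0.0389 with DESeq2). Msrb1, a methionine sulfoxide reductase, was at 27.1, 27.4 and 30.7 CPM against 40.0, 64.1 and 43.0 CPM, again without overlap (log2 fold change -0.79, standard error 0.27, unadjusted p = 0.0208, adjusted p = 0.446). Thioredoxin itself, Txn1, was at 80.9, 85.3 and 157 CPM against 115, 107 and 180 CPM, and overlapped. The log2 fold change of Txn1 was -0.31 (standard error 0.35, adjusted p = 0.902), within a range from -0.70 without tumor 116 to -0.05 without tumor 167.

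Genes of glutathione metabolism outside the set (27 tested) lay below 0 in 16 and above in 11, with a median log2 fold change of -0.09. At an unadjusted p under 0.05 (edgeR), 1 lay lower and 1 higher, against 3.29% and 5.3% of all genes tested. The lower gene was Slc25a39, the carrier of glutathione into mitochondria, at 74.7, 65.9 and 77.0 CPM in older tumors and 99.6, 122 and 94.4 CPM in younger ones. Its groups did not overlap (log2 fold change -0.54, standard error 0.22, unadjusted p = 0.0385, adjusted p = 0.54). The higher gene was Ggt1, which splits glutathione outside the cell, at 7.88, 155 and 62.8 CPM against 17.8, 18.0 and 11.1 CPM. Older tumor 102 was below every younger tumor for Ggt1, so the groups overlapped (log2 fold change 2.27, standard error 0.86, unadjusted p = 0.0314, adjusted p = 0.504). Older tumor 107 was its highest, and the log2 fold change was 1.19 without that tumor. The cystine transporter Slc7a11 was at 44.9, 3.17 and 5.38 CPM against 33.3, 23.1 and 11.6 CPM. Tumor 102 was its highest, and the log2 fold change of -0.38 (adjusted p = 0.96, standard error 0.93) was -2.40 without tumor 102 and 0.12 without tumor 107.

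Oxidant-producing enzymes lay the other way by sign: 14 of 20 tested were above 0, where 50.4% of all genes tested were below 0. Their median log2 fold change was 0.49. At an unadjusted p under 0.05 (edgeR), 6 of the 20 lay higher and 1 lower, against 5.3% and 3.29% of all genes tested. Subunits and partners of the phagocyte NADPH oxidase, which makes superoxide, were among the 6. Ncf1 was at 45.6, 80.8 and 38.1 CPM in older tumors and 11.8, 5.22 and 12.5 CPM in younger ones (log2 fold change 2.48, standard error 0.45, unadjusted p = 6.72e-04, adjusted p = 0.235 with edgeR and 1.10e-04 with DESeq2). Cybb, the catalytic subunit, was at 108, 68.1 and 43.1 CPM against 21.3, 17.8 and 20.6 CPM (log2 fold change 1.87, standard error 0.36, unadjusted p = 0.00103, adjusted p = 0.242 with edgeR and 0.00131 with DESeq2). All 3 older tumors lay above all 3 younger ones for Ncf1 and for Cybb. Ncf4 was at 11, 7.02 and 8.37 CPM against 3.87, 2.34 and 3.69 CPM, again without overlap (log2 fold change 1.40, standard error 0.43, unadjusted p = 0.0117, adjusted p = 0.374). Cyba, at 17.1, 49.8 and 42.3 CPM against 18.7, 11.3 and 17.7 CPM, overlapped through tumor 102 (log2 fold change 1.20, standard error 0.43, unadjusted p = 0.0256, adjusted p = 0.481).

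The difference in Rac2, a GTPase of the same complex, rested on a single tumor. Rac2 was at 13.0, 77.8 and 11.8 CPM in older tumors and 11.4, 6.66 and 12 CPM in younger ones, and its log2 fold change of 1.77 (standard error 0.76, unadjusted p = 0.0489, adjusted p = 0.578) was 0.30 without tumor 107. Duoxa1, a maturation factor of the dual oxidase DUOX1, was at 60.7, 66.8 and 57.8 CPM against 28.7, 51.7 and 19.7 CPM, with no overlap (log2 fold change 0.89, standard error 0.37, unadjusted p = 0.0433, adjusted p = 0.559) and a log2 fold change of 1.35 without tumor 158. Ero1a, which makes hydrogen peroxide during disulfide formation in the endoplasmic reticulum, was the lower gene, at 275, 88.7 and 87.1 CPM against 534, 282 and 350 CPM. Tumor 102 stood well above the other older tumors for Ero1a, yet the groups did not overlap (log2 fold change -1.38, standard error 0.51, unadjusted p = 0.0293, adjusted p = 0.497). Without that tumor the log2 fold change was -2.15.

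**Figure D4:**
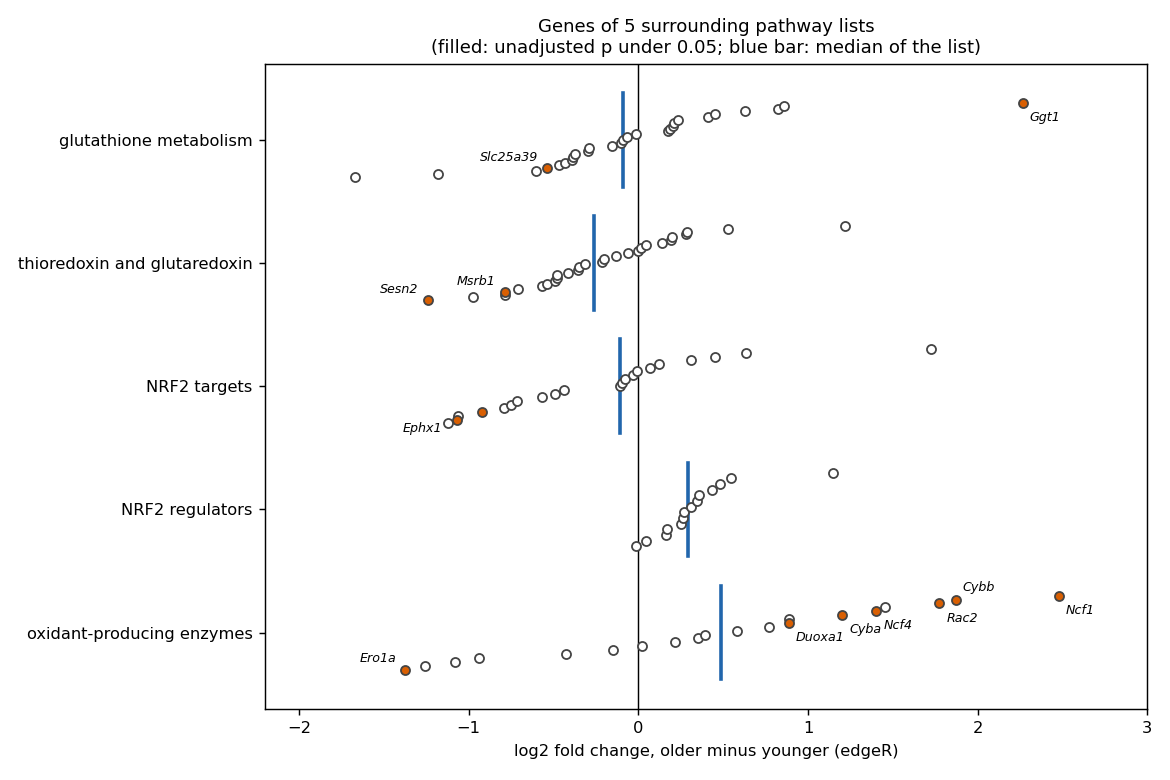
Log2 fold changes (older minus younger, x axis) of the genes tested in 5 surrounding pathway lists (y axis), with filled points at an unadjusted p under 0.05 and a bar at the median of each list. The medians run from -0.26 (thioredoxin and glutaredoxin) to 0.49 (oxidant-producing enzymes), where 6 filled points lie right of 0.

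Summed markers of several cell types followed the age groups. For the counts of marker genes given here, the shares of all genes tested were 50.4% below 0. At an unadjusted p under 0.05 (edgeR) they were 3.29% lower and 5.3% higher. Summed macrophage markers were at 334, 427 and 249 CPM in older tumors 102, 107 and 116 and 181, 138 and 120 CPM in younger tumors 157, 158 and 167, with 9 of 9 tested genes above 0, 5 of them at an unadjusted p under 0.05, and Marco at 0 counts. This sum separated the groups in the direction of Ncf1, Cybb and Ncf4, and its part in those values was not tested. Luminal epithelial markers were at 1600, 2017 and 1766 CPM against 2930, 2163 and 2823 CPM, with 9 of 9 genes below 0, 1 of them at an unadjusted p under 0.05. That sum separated the groups in the direction of Prdx3, Mgst3, Gsr, Prdx6 and Gstt2, and its part in those values was not tested.

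The other lists overlapped, with the exception of mast cell markers (258, 314 and 296 CPM against 73.4, 122 and 195 CPM) and T cell markers (16.8, 86.4 and 21.5 CPM against 8.63, 5.22 and 8.11 CPM, with 2 genes tested). The mast cell sum separated the groups through Kit alone, a receptor that luminal progenitors of the mammary gland also carry, at 245, 171 and 294 CPM in older tumors and 36.6, 115 and 50.9 CPM in younger ones. The other 7 mast cell markers summed to 13.0, 143 and 2.79 CPM against 36.8, 6.30 and 144 CPM, which overlapped. Of those tested, Cpa3 and Ms4a2 had log2 fold changes of -0.58 and -0.76. Tpsb2, Cma1 and Tpsab1 lay above 0, at 0.38, 0.27 and 0.11. Proliferation markers were below 0 in 10 of 10 genes, with sums of 169, 811 and 1056 CPM against 1294, 784 and 787 CPM. Older tumor 102 had the lowest of these sums, while older tumors 107 and 116 lay above younger tumors 158 and 167. Erythroid markers were below 0 in 4 of 4 tested, 2 of them at an unadjusted p under 0.05. Myoepithelial markers were at 450, 2603 and 786 CPM against 2762, 1882 and 1885 CPM, fibroblast markers at 1335, 145 and 631 CPM against 1070, 1024 and 133 CPM, and adipocyte markers at 799, 146 and 113 CPM against 108, 198 and 87.2 CPM. Endothelial markers were at 413, 338 and 108 CPM against 254, 321 and 75.7 CPM and skeletal muscle markers at 14.4, 62.9 and 9.17 CPM against 26.4, 28.3 and 26.8 CPM. Neutrophil markers were near the floor, with sums of 1.71 to 5.18 CPM against 0.983 to 9.91 CPM and 0 of 8 genes tested.

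**Figure D5:**
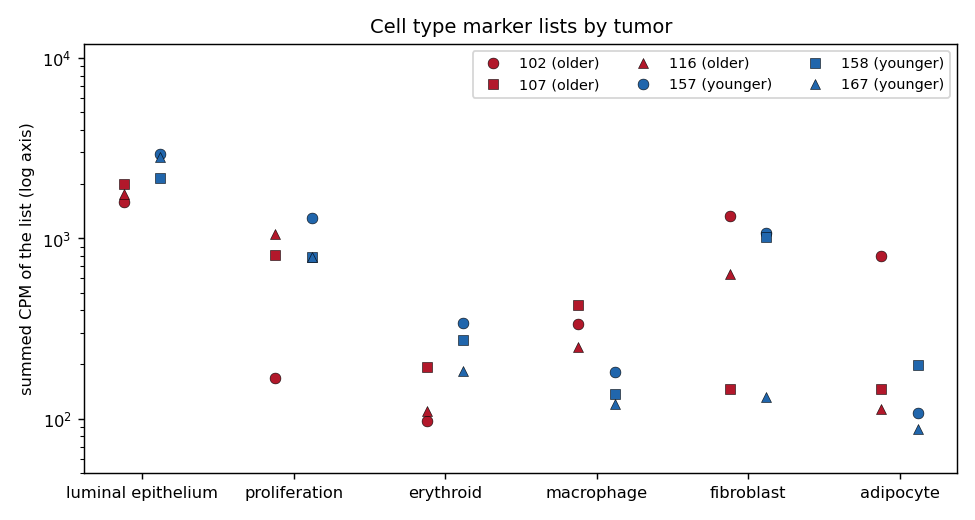
Summed CPM (y axis, log scale) of 6 of the marker lists (x axis) in each of the 6 tumors, colored by age group. Macrophage sums are higher in the 3 older tumors (249 to 427 CPM, against 120 to 181 CPM) and luminal epithelial sums are lower (1600 to 2017 CPM, against 2163 to 2930 CPM).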

How the data were processed

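Bulk RNA-seq counts of 6 tumors were used, grouped by the age of the rat in the labels. Per the submitters' processing notes, reads were checked with FastQC 0.11.7, trimmed with Trimmomatic 0.38, aligned to mRatBN7.2 with STAR 2.7.9a, marked for duplicates with Picard 2.18.12 and counted with HTSeq 0.13.5. The authors deposited raw read counts per gene, without normalization. The annotation and the strand setting of the counting are not given in the sources used here, so reads of overlapping or antisense genes cannot be told apart. The labels give polyA RNA and reads of 100 bases, and the protocol gives rRNA depletion and 150 bases. Of the 30562 rows, 4367 carry no gene name and hold 2.17% to 3.64% of the counts of a tumor. They were left out of library sizes and tests, and keeping them was an alternative chosen after seeing the data. No ERCC row is in the table (0).

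Counts were analysed in R 4.3.3. Genes were kept by edgeR's filterByExpr, scaled by TMM and tested with edgeR 4.0.16 (quasi-likelihood test, no covariates, Benjamini-Hochberg over all genes tested, threshold 0.05). Standard errors were computed from the log2 fold change and the F statistic. The scripts were tested on simulated data. Log2 CPM used a prior count of 2. Alternatives were DESeq2 1.42.0 (size factors, Wald test), limma 3.58.1 (voom), library totals, 2 other filters (at least 1 count, or 10 counts in every tumor), removal of the 10 most abundant genes, prior counts of 2 in the fit and 0.5 in log2 CPM, and leaving out each tumor.

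Genes were given tumor by tumor where the unadjusted p was under 0.05 or DESeq2 called them, for the 5 highest mean CPM and the 5 widest log2 ranges, and for Gclc, Gclm, Nfe2l2 and Keap1. Further genes of each family, among them those whose groups did not overlap, were described after their values were seen. In the 5 pathway lists, genes with an unadjusted p under 0.05 and Nqo1, Slc7a11 and Txn1 were given, except for a gene that is not reported here. The genes, lists and tests were chosen with earlier results of these data known. Other assays of these tumors were not analysed here.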

Additional observations from a re-analysis of the deposited data

How the results depend on the processing

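No gene of the 45 passed an adjusted p of 0.05 under any setting run (0 each time). Their median log2 fold change (-0.38) stayed below 0 throughout, from -0.46 with library totals to -0.32 with a minimum of 10 counts per tumor, and from -0.54 to -0.21 when a tumor was left out. The count at an unadjusted p under 0.05 (4, and 8.59% of all genes) was 4 under the other settings (6.76% to 10.1% of all genes) and 2 (without tumor 158, 8.83% of all genes) to 6 (without tumor 102 or 116, 7.28% and 10.6%) when a tumor was left out. The count of genes whose groups do not overlap (5, and 12.1% of all genes) was 4 with library totals and 6 to 16 when a tumor was left out. Fewer tumors make overlap less likely for any gene: the share of all genes was 27% for the 16 without tumor 116 and 23.7% for the 6 without tumor 158. The count over the pathway lists (13) was 11 to 17 under other settings and 7 to 15 when a tumor was left out, with 7 without tumor 107 or 157 (8.28% and 5.85% of all genes), and the cause was not tested. Keeping the rows without a name left the counts at 4, 5 and 13 and the median at -0.39.

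Of 463 gene settings over 31 genes, 447 kept their direction and their side of the threshold, 3 passed it with DESeq2 (Ncf1, Cybb and Sesn2) and 13 changed sign in 8 genes. Nfe2l2 was -0.0094 with library totals and -0.028 to 0.12 when a tumor was left out. The other ranges over the fits that left out a tumor were -1.23 to 0.84 for Cat, -0.025 to 0.22 for Gclm, -0.35 to 0.046 for Keap1, -0.29 to 0.22 for Nqo1, -0.57 to 0.070 for Prdx2, -2.40 to 0.12 for Slc7a11 and -0.18 to 0.51 for Sod2. No paired analysis was possible because the age groups share no tumor numbers. Depth limits genes near the floor of 3 counts, such as the 5 that were too low to test.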
